A study of Mus musculus with 12 samples.

Results

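Immunoglobulin transcripts were followed in RNA from sorted mouse CD4+ T cells. All genes of the deposited table whose symbol starts with Ighv, Igkv, Iglv, Ighm, Ighd, Ighg, Igha, Igkc or Iglc were taken, together with Jchain, which gave 161 of 17523 genes. Ighmbp2, a helicase gene on chromosome 19 that shares the prefix, was set aside, with 854 to 1289 normalized counts over the 12 libraries. The 160 remaining genes comprised 71 heavy chain V segments (Ighv), 70 kappa V segments (Igkv), 3 lambda V segments (Iglv), 4 heavy chain D segments, 7 heavy chain constant genes, Igkc, 3 lambda constant genes (Iglc) and Jchain. They lie on chromosomes 12 (82 genes), 6 (71 genes), 16 (6 genes) and 5 (Jchain).

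The study profiled CD4+ T cells of C57BL/6 Gr/fr mice by bulk RNA sequencing. In these mice iCre and a BFP reporter are made from the Csf2 locus, with GM-CSF itself still produced. A Rosa26 STOP-eYFP allele then marks permanently any cell in which Csf2-driven Cre has acted, so YFP+ cells express or once expressed GM-CSF and YFP- cells do not carry that mark. The 4 groups, each with 3 libraries, were naive (CD62L+ CD44-) YFP- cells, naive YFP+ cells, effector memory (TEM, CD62L- CD44hi) YFP- cells and TEM YFP+ cells. All groups shared this genotype and strain and came by FACS from spleens of unstimulated mice, so no treatment separates them. The labels give no age or sex for these libraries, and the study describes its mice as males and females 2 to 3 months old. Library depth on genes was 40974124 reads at the lowest, 44929387 at the median and 57822269 at the highest.

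Immunoglobulins are the antigen receptors and antibodies of the B lineage. A heavy chain joins a V, a D and a J segment to a constant region (Ighm and Ighd in naive B cells, the Ighg genes and Igha after class switching), a light chain joins a kappa or lambda V and J segment to Igkc or an Iglc gene, and Jchain links IgM or IgA units into polymers in plasma cells. T cells rearrange T cell receptor genes, but unrearranged parts of the heavy chain locus, the region around Ighm included, can be transcribed in lymphocytes without yielding antibody.

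Markers of the sorted cells went with the labels. All 10 genes of a T cell identity list were in the table, and their summed level was 294702, 251042 and 299498 normalized counts in naive YFP- cells, 314107, 239119 and 291015 in naive YFP+ cells, 276448, 311249 and 272469 in TEM YFP- cells and 324289, 321792 and 313831 in TEM YFP+ cells. Normalized counts are read counts divided by a size factor per library, and values of a group are given in the order of replicates 1, 2 and 3. None of the 10 lay at 0 in any library or was called in any of the comparisons below, and Cd4, the coreceptor that defines the lineage, had the largest mean among them. Cd44, an activation marker, ranged from 2334 to 3372 in naive and from 21778 to 29383 in TEM libraries. Csf2, the GM-CSF gene, had 139, 55.9 and 152 normalized counts in TEM YFP+ cells and at most 3.94 in any other library.

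The naive YFP+ library of replicate 2 stood apart from the other naive libraries. It held the highest count of Igkc, Jchain, Ighg2b, Ighg2c and the summed V segments among all 12 libraries, and the highest naive count of Igha. Genes of other blood cells were also high in it, with 1355 normalized counts of the globin gene Hba-a1, 664 of the complement gene C1qa and 1601 of the macrophage receptor gene Csf1r, against at most 345, 90.3 and 219.6 in the other 5 naive libraries. Several results below are given with and without this library. More broadly, libraries numbered 2 held 64.6% of all V segment counts, against 17.5% for those numbered 1 and 17.9% for those numbered 3.

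Ighm, the mu heavy chain constant gene (chr12:113418826-113422730 in mm10, minus strand), was the most abundant immunoglobulin gene in every library. It had 26854, 24131 and 28288 normalized counts in naive YFP- cells, 26207, 28776 and 25634 in naive YFP+ cells, 29957, 33928 and 27986 in TEM YFP- cells and 21086, 28508 and 22242 in TEM YFP+ cells. The groups overlapped, and the highest and lowest libraries differed by less than a factor of 2. Ighm made up 97.5, 88.6 and 96.5% of immunoglobulin reads in naive YFP- libraries, 96.7, 65.3 and 96.4% in naive YFP+ libraries, 91.7, 80.8 and 90.5% in TEM YFP- libraries and 74.5, 82.6 and 78.9% in TEM YFP+ libraries. The lowest share, 65.3%, was that of naive YFP+ replicate 2 (exact binomial 95% confidence interval 64.9% to 65.7%), and the highest was 97.5% (97.3% to 97.7%) in naive YFP- replicate 1. Such intervals, and the floors given below, cover counting error only.

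Per kilobase of annotated exon, Ighm reached the level of T cell genes. Its 12 libraries ranged from 11180 to 17989 normalized counts per kilobase, beside 8948 to 16734 for Cd4 and 7408 to 11584 for Cd3e, a chain of the T cell receptor complex. On the same scale the B cell genes lay far lower, with 25.9 to 471 for Cd79a, a signaling chain of the B cell receptor, and 1.59 to 36.4 for Ms4a1, which encodes CD20. Igkc ranged from 409 to 8346 and Ighd from 102 to 244 per kilobase. The quotient of Ighm over Igkc counts was 123, 23.9 and 105 in naive YFP- cells, 101, 6.48 and 85.6 in naive YFP+ cells, 45.9, 14.3 and 38.5 in TEM YFP- cells and 13, 15 and 14 in TEM YFP+ cells, so the relation between the heavy and light constant genes differed widely between libraries. In bulk RNA, fewer cells of a type and less RNA per cell cannot be told apart.

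**Figure D1:**
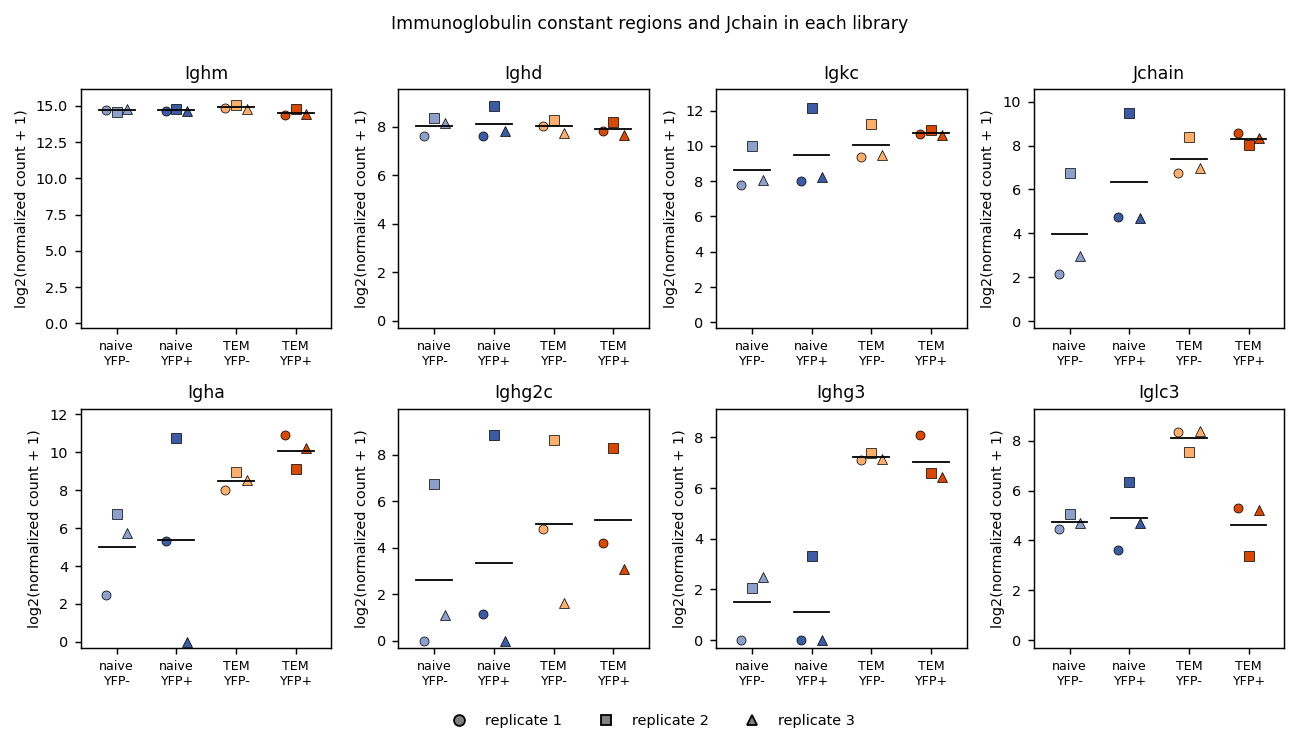
Normalized counts of 7 immunoglobulin constant genes and Jchain on a log2 scale (count + 1) in the 4 groups, with 1 marker per library, its shape giving the replicate number, and a line at the mean of the log2 values. The groups overlapped for Ighm and Ighd, Ighg3 was high in all TEM libraries, Iglc3 was high in TEM YFP- libraries, and Igkc, Jchain, Igha and Ighg2c were high in naive YFP+ replicate 2.

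Differences were tested with limma on log2 values of the 15587 genes in which 3 or more libraries held 5 or more normalized counts. This main fit took the 12 libraries as independent and had no term for the replicate number. The numbers pair samples, so fits with such a term are also given. Calls required both an adjusted p (Benjamini-Hochberg) no higher than 0.05 and a log2 fold change of at least 1 in size. Of the immunoglobulin genes, 116 passed this filter (51 Ighv, 49 Igkv, 3 Iglv, 2 D segments, 6 heavy constant genes, Igkc, 3 Iglc and Jchain) and 44 did not, Ighg1 among them. An exact permutation test of 3 libraries against 3 cannot give a p below 0.10, so none is reported for the YFP comparisons. None was run for TEM against naive cells, with 6 libraries on each side.

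The comparison of TEM with naive cells asks how antigen experience relates to these transcripts. Several constant genes, Jchain and a D segment were called higher in TEM cells, while Ighm and Ighd did not pass the test. Of the 116 genes tested, 14 (12.1%) were called higher and 0 lower, beside 21.6% and 5.74% of all 15587 genes. At an unadjusted p under 0.05, 17 (14.7%) were higher and 0 lower, beside 35.8% and 27.4% of all genes. With a term for the replicate number limma called 19 higher (16.4%) and 0 lower, beside 21.9% and 5.79%. edgeR called 12 higher (10.3%) and 1 lower (0.862%), beside 20.4% and 6.09%. DESeq2 called 11 higher (9.48%) and 0 lower, beside 20.5% and 5.71%, and with a term for the replicate number 26 higher (22.4%) and 0 lower, beside 21.0% and 5.58%. The median log2 fold change was 0.50 over the 116 genes and 0.039 over all genes tested. Quantile normalization shifted the log2 fold changes of all genes by a median of -0.30 in this comparison. It gave 4 immunoglobulin genes higher (3.45%) and 14 lower (12.1%), beside 14.9% and 17.2% of all genes.

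Ighg3, the gamma3 constant gene, showed the clearest separation. Its counts were 0, 3.18 and 4.61 in naive YFP- cells, 0, 8.85 and 0 in naive YFP+ cells, 139, 165 and 142 in TEM YFP- cells and 275, 94.2 and 85.5 in TEM YFP+ cells. All 6 TEM libraries lay above all 6 naive libraries. It rose in TEM cells (log2 fold change 5.82, SE 0.63, limma adjusted p = 5.04e-06). It was called in all 24 alternative settings, with adjusted p from 1.96e-18 to 0.000184. Only 1 naive library held 5 or more counts, so Ighg3 passed the filter through its TEM libraries. Without the filter it was also called (limma adjusted p = 4.62e-06).

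Ighd4-1, the D segment nearest the J segments of the heavy chain locus, behaved alike. It had 13.8, 14.9 and 3.46 normalized counts in naive YFP- cells, 11.1, 1.97 and 2.79 in naive YFP+ cells, 125, 153 and 120.2 in TEM YFP- cells and 50.6, 114 and 67.5 in TEM YFP+ cells. Every TEM library exceeded every naive library, and within TEM the YFP- and YFP+ libraries did not overlap. It rose in TEM cells (log2 fold change 3.78, SE 0.43, limma adjusted p = 8.11e-06), but the YFP comparison within TEM did not pass (log2 fold change -0.85, SE 0.61, limma adjusted p = 0.592). The germline sequences are shown because any read longer than such a segment must extend beyond it. The 4 D segments of the table follow, 5′ to 3′ on the minus strand of chromosome 12 in GRCm38 (mm10), from GENCODE M21 transcripts, with no base in capitals.
Ighd4-1: ctaactgggac
Ighd1-1: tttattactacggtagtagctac
Ighd2-5: cctactatagtaactac
Ighd2-6: cctactatagtaactac
They lie at chr12:113430528-113430538, chr12:113482170-113482192, chr12:113466027-113466043 and chr12:113461369-113461385. The 11, 23, 17 and 17 bases include a pair of identical copies, Ighd2-5 and Ighd2-6, whose read counts were equal in all 12 libraries, so their separate levels are uncertain. Both were at 0 in the 6 naive libraries and reached at most 8.20 normalized counts in TEM, and Ighd1-1 reached at most 14.8, in naive YFP+ replicate 2.

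Jchain, which joins secreted IgM and IgA units, was the next of these genes. It had 3.46, 105 and 6.91 normalized counts in naive YFP- cells, 26, 723 and 25.1 in naive YFP+ cells, 105, 336 and 126 in TEM YFP- cells and 377, 258 and 319 in TEM YFP+ cells. Of the naive libraries, those of replicate 2 reached TEM levels, and the other 4 lay at or below 26.0. Jchain rose in TEM cells (log2 fold change 2.70, SE 0.90, limma adjusted p = 0.0203), with 3.49 without naive YFP+ replicate 2. The call was lost without naive YFP- replicate 1 (adjusted p = 0.0527), naive YFP+ replicate 3 (0.0514) or TEM YFP- replicate 2 (0.0508). It was also lost with edgeR (0.240), DESeq2 (0.249) and quantile normalization (0.0899), and the 24 settings spanned 5.83e-06 to 0.249.

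Igha, the constant gene of IgA, followed the same order. Its counts were 4.61, 105 and 53 in naive YFP- cells, 39.6, 1722 and 0 in naive YFP+ cells, 259, 492 and 373 in TEM YFP- cells and 1930, 547 and 1207 in TEM YFP+ cells. Naive YFP+ replicate 2 lay near the highest TEM library, and the remaining naive libraries reached at most 105 against at least 259 in TEM. Igha rose in TEM cells (log2 fold change 4.12, SE 1.38, limma adjusted p = 0.0215), with a log2 fold change of 5.46 without naive YFP+ replicate 2 and 2.78 without naive YFP+ replicate 3, in which it had 0 reads. The call was lost without naive YFP- replicate 1 (0.0556), with edgeR (0.126) and with DESeq2 (0.171), over a range of 0.000306 to 0.171.

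Ighg2b and Ighg2c, which encode IgG2 heavy chains, were carried mainly by replicate 2. Ighg2b had 1.15, 5.3 and 0 normalized counts in naive YFP- cells, 0, 472 and 3.72 in naive YFP+ cells, 63.2, 360.2 and 13.2 in TEM YFP- cells and 9.1, 151 and 97.9 in TEM YFP+ cells. Ighg2c had 0, 106 and 1.15 in naive YFP- cells, 1.24, 467 and 0 in naive YFP+ cells, 27.1, 397 and 2.04 in TEM YFP- cells and 17.2, 316 and 7.6 in TEM YFP+ cells. In each of the 4 groups replicate 2 had the highest count of both genes. Ighg2b rose in TEM cells (log2 fold change 3.44, SE 1.36, limma adjusted p = 0.0443), but was called in only 12 of 24 settings, with adjusted p from 0.00101 to 0.149. The lowest came without naive YFP+ replicate 2, at a log2 fold change of 4.74. Ighg2b, too, passed the filter only with its TEM libraries, and it was called without the filter (limma adjusted p = 0.0453). Its call was lost on leaving out any of 8 libraries, naive YFP- replicates 1 (0.0738) and 3 (0.0940), naive YFP+ replicates 1 (0.105) and 3 (0.0937), TEM YFP- replicates 1 (0.0714) and 2 (0.110), or TEM YFP+ replicates 2 (0.0929) and 3 (0.0873). Ighg2c did not pass (log2 fold change 2.13, SE 1.77, limma adjusted p = 0.32), nor without naive YFP+ replicate 2 (log2 fold change 3.51, adjusted p = 0.0606). Ighg1 had at most 5.18 normalized counts in 11 libraries and 51.1 in TEM YFP- replicate 2.

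Among switched heavy chain reads (Igha and the Ighg genes), the isotype mix differed between libraries. Igha took 52.8, 33.6 and 70.4% in TEM YFP- cells and 86.4, 49.1 and 86.2% in TEM YFP+ cells. Ighg2c took 5.52, 27.1 and 0.385% and 0.77, 28.4 and 0.543% in the same order. In both sets replicate 2 had the lowest Igha share and the highest Ighg2c share. Their summed level was 5.76, 219.6 and 58.8 normalized counts in naive YFP- cells, 40.8, 2671 and 3.72 in naive YFP+ cells, 490.5, 1465 and 529.7 in TEM YFP- cells and 2233, 1113 and 1401 in TEM YFP+ cells.

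Igkc, the only kappa constant gene (chr6:70726435-70726754, plus strand), had 218, 1009 and 269.6 normalized counts in naive YFP- cells, 259.7, 4440 and 299 in naive YFP+ cells, 652, 2368 and 726 in TEM YFP- cells and 1620, 1905 and 1591 in TEM YFP+ cells. Replicate 2 was the highest of each group, and naive YFP+ replicate 2 was the highest of all. In TEM against naive cells Igkc did not pass (log2 fold change 1.34, SE 0.66, limma adjusted p = 0.0961). Without naive YFP+ replicate 2 the log2 fold change was 2.01 (adjusted p = 0.00115), without naive YFP- replicate 2 it was 1.69 (0.0461), and with a term for the replicate number the adjusted p was 0.0103, within a range of 2.33e-06 to 0.441. The gene lies inside Gm30211, a long noncoding RNA gene annotated on the same strand, so reads of that transcript were not told apart.

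Ighd, the delta constant gene co-expressed with Ighm in naive B cells, had 193, 332 and 283 normalized counts in naive YFP- cells, 198, 463 and 228 in naive YFP+ cells, 260.0, 312 and 216 in TEM YFP- cells and 228, 296 and 199 in TEM YFP+ cells. Its groups overlapped, and neither Ighd (log2 fold change -0.12, limma adjusted p = 0.674) nor Ighm (log2 fold change 0.017, limma adjusted p = 0.883) passed in TEM against naive cells. Both estimates changed sign between settings, from -0.094 to 0.26 for Ighm and from -0.81 (quantile normalization) to 0.072 for Ighd. The adjusted p went down to 0.0460 for Ighm and 0.00277 for Ighd, and neither was called in any of the 24 settings.

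The remaining 8 genes called higher in TEM were V segments with a mean below 50 normalized counts, chosen for naming after their values were seen. They were Ighv1-26 (2.83), Igkv4-80 (2.64), Ighv5-16 (2.64), Ighv1-47 (2.58), Igkv2-109 (2.21), Igkv8-24 (2.12), Ighv1-31 (1.79) and Ighv1-66 (1.72), given as log2 fold changes. Of the 14 genes called, 9 would not have passed the filter without their TEM libraries. These were Ighg3, Ighg2b, Ighv1-26, Igkv4-80, Ighv5-16, Ighv1-47, Igkv2-109, Ighv1-31 and Ighv1-66. Igkv4-80 and Ighv5-16 had no naive library with 5 or more counts. All 14 were also called without the filter. Ighv1-26, the most abundant of the 8 V segments, had 3.46, 15.9 and 4.61 normalized counts in naive YFP- cells, 1.24, 26.6 and 4.65 in naive YFP+ cells, 42.7, 46.7 and 30.6 in TEM YFP- cells and 131, 50.7 and 40.9 in TEM YFP+ cells. Every TEM library exceeded every naive library for it. The number of called genes depended on single libraries. It was 29 higher, 30.9% of the 94 tested beside 22.6% of 15440 genes in all, without naive YFP+ replicate 2. It was 7 higher (6.14%, beside 21.2%) without naive YFP- replicate 1, and 9 higher without naive YFP- replicate 3 (7.83%, beside 21.1%) or naive YFP+ replicate 3 (7.83%, beside 21.0%). Without TEM YFP- replicate 2 it was 8 higher (8.42%, beside 20.5%) and 1 lower (1.05%, beside 5.60%). Without replicate 2 in all groups, chosen after seeing the data, it was 22 higher, 47.8% of only 46 tested, beside 21.2% of all genes. After each omission the filter was applied again to the libraries that remained, so these shares refer to different sets of genes. How many of the genes then called passed only through TEM libraries was not counted.

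Summed over all 160 genes, the level was 27540, 27251 and 29307 normalized counts in naive YFP- cells, 27104, 44069 and 26593 in naive YFP+ cells, 32660, 41975 and 30936 in TEM YFP- cells and 28320, 34514 and 28182 in TEM YFP+ cells. Without Ighm the sum was 686, 3120 and 1020 in naive YFP- cells, 898, 15293 and 959 in naive YFP+ cells, 2703, 8047 and 2950 in TEM YFP- cells and 7235, 6006 and 5940 in TEM YFP+ cells. The log2 ratio of TEM to naive means was 0.11 for all genes, 0.58 without Ighm, and 2.04 when naive YFP+ replicate 2 was also left out. Hence the direction without Ighm was the same with and without that library, and the size was not.

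**Figure D2:**
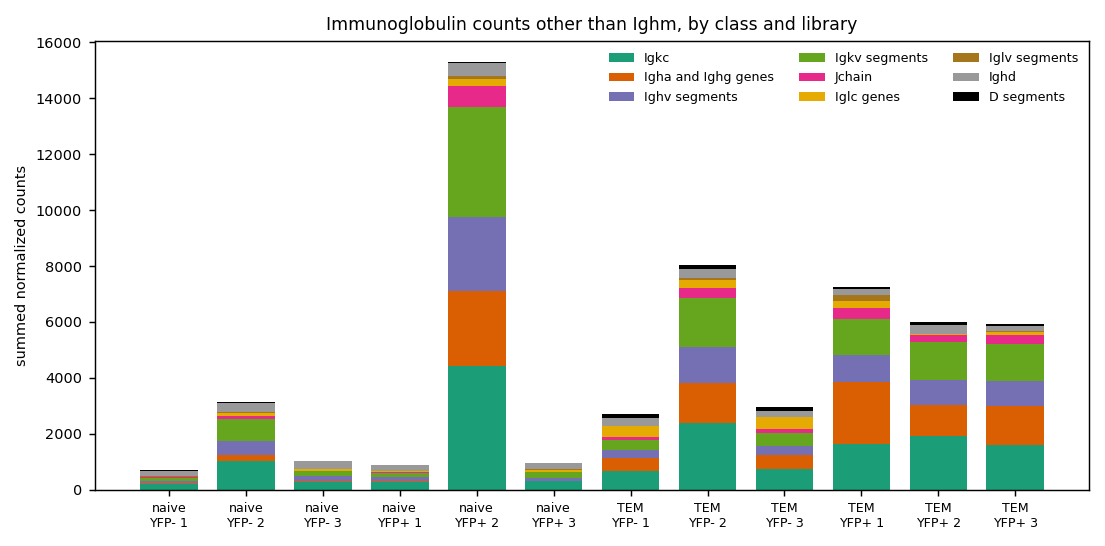
Stacked bars of summed normalized counts of all immunoglobulin genes other than Ighm, by class, in each of the 12 libraries. Naive YFP+ replicate 2 reached 15293, the other naive libraries at most 3120, and TEM libraries 2703 to 8047.

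The comparison of YFP+ with YFP- TEM cells asks what distinguishes effector memory cells that have expressed GM-CSF. Lambda constant gene Iglc3 was lower in TEM YFP+ cells, and a pair of rare V segments was higher. Of the 116 genes tested, 2 (1.72%) were called higher and 1 (0.862%) lower, beside 1.3% and 3.5% of all genes tested. The median log2 fold change was 0.35 over the 116 and -0.013 over all genes tested, and both medians were the same at this precision with genes absent from a whole group set to a floor of 3 reads per library.

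Iglc3 (chr16:19065365-19065681, minus strand) encodes a constant region of the lambda light chain. It had 20.7, 32.9 and 25.3 normalized counts in naive YFP- cells, 11.1, 80.7 and 25.1 in naive YFP+ cells, 326, 185 and 339 in TEM YFP- cells and 38.4, 9.32 and 36.1 in TEM YFP+ cells. All 3 TEM YFP- libraries lay above the other 9. The means were 283 ± 85.2 (SD, n = 3) in TEM YFP- cells and 28 ± 16.2 (SD, n = 3) in TEM YFP+ cells. Iglc3 fell in TEM YFP+ cells (log2 fold change -3.47, SE 0.66, limma adjusted p = 0.00587), in all 24 alternative settings, with adjusted p from 6.10e-06 to 0.0363. The contrast of both TEM groups with both naive groups was also called (log2 fold change 1.55, SE 0.47, limma adjusted p = 0.0122), but only TEM YFP- libraries lay above the naive range (11.1 to 80.7), and TEM YFP+ libraries did not (9.32 to 38.4). Quantile normalization reduced this contrast to 0.39 (adjusted p = 0.422, the highest of a range from 0.000181).

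Whether the YFP difference of Iglc3 itself differed between TEM and naive cells was tested as an interaction. It did not pass (log2 fold change -3.61, SE 0.93, limma adjusted p = 0.0565), but it was called in 6 of 24 settings, including edgeR (0.0441), DESeq2 (0.000823) and the fit without naive YFP+ replicate 1 (0.0203), within a range of 0.000823 to 0.164.

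The other lambda constant genes had lower means over the 12 libraries. Iglc1 had 3.46, 24.4 and 4.61 normalized counts in naive YFP- cells, 8.66, 112 and 9.3 in naive YFP+ cells, 27.9, 66 and 31.6 in TEM YFP- cells and 192, 5.18 and 47.5 in TEM YFP+ cells. Iglc2 had 9.21, 44.6 and 34.6 in naive YFP- cells, 29.7, 78.7 and 27.9 in naive YFP+ cells, 34.4, 45.2 and 59.1 in TEM YFP- cells and 37.4, 15.5 and 21.9 in TEM YFP+ cells. Their groups overlapped, and neither passed in TEM YFP+ against YFP- cells (Iglc1 log2 fold change -0.041, limma adjusted p = 0.996, Iglc2 log2 fold change -0.92, limma adjusted p = 0.527). Iglc3 held 83.9, 62.5 and 78.9% of lambda constant reads in TEM YFP- cells and 14.3, 31 and 34.2% in TEM YFP+ cells. The quotient of Iglc3 over summed lambda V counts was 16.5, 2.29 and 15.1 in TEM YFP- cells and at most 5.50 in any other library, so in TEM YFP- replicates 1 and 3 the constant gene was far ahead of the lambda V segments.

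The sequences show how far reads could separate the lambda genes. Below are 180 bases of each constant exon, 5′ to 3′ on the minus strand of chromosome 16 in GRCm38, from GENCODE M21 transcripts, with capitals for bases found in only 1 of the 3 genes.
Iglc1: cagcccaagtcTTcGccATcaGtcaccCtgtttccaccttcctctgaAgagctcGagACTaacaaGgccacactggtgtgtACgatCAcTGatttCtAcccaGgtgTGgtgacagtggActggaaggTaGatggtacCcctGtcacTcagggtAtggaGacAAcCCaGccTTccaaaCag
Iglc2: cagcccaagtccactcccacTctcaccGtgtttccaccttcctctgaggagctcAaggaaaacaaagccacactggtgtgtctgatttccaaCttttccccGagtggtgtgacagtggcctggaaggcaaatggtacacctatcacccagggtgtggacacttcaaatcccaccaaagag
Iglc3: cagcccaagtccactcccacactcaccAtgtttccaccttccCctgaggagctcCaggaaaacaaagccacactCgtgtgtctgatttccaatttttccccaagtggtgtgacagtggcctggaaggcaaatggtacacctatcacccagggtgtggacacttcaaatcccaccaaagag
They lie at chr16:19061890-19062069, chr16:19198671-19198850 and chr16:19065500-19065679. Iglc3 differed from Iglc2 at 7 of 180 bases (96.1% identity) and shared with it 43 of the 403 windows of 50 bases in its transcript, the longest common run being 79 bases. It differed from Iglc1 at 42 bases and shared no such window. Reads within the common windows cannot be assigned to Iglc3 or Iglc2, so the split between this pair is uncertain. Iglc1, Iglc3 and Iglv1 also lie within 2010309G21Rik, annotated as an antisense gene, and the strand setting of the counting was not given in the sources used here.

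Markers of antigen-presenting cells moved the same way as Iglc3 in TEM cells. All 8 genes of an MHC class II list fell in TEM YFP+ cells (median log2 fold change -3.61), and all 8 were also called lower in the interaction. Their summed level was 6860, 9069 and 8148 normalized counts in naive YFP- cells, 7733, 15134 and 7285 in naive YFP+ cells, 235360, 171981 and 356274 in TEM YFP- cells and 30018, 12728 and 24400 in TEM YFP+ cells. Cd74, the invariant chain and the most abundant of them, had 98157, 70981 and 149677 in TEM YFP- and 13532, 5477 and 11136 in TEM YFP+ cells (log2 fold change -3.43, SE 0.42, limma adjusted p = 4.50e-04).

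Dendritic cell lists gave a similar picture. In a plasmacytoid dendritic cell list, 5 of 8 genes fell and 0 rose (median -3.03), with a summed level of 9016, 7951 and 9015 in naive YFP- cells, 9044, 8503 and 8775 in naive YFP+ cells, 17464, 12272 and 17283 in TEM YFP- cells and 9527, 8797 and 9401 in TEM YFP+ cells. Pacsin1 was its most abundant gene and was also high in naive cells, whereas Siglech, a defining receptor, had 3367, 1412 and 3263 in TEM YFP- cells, 118, 26.9 and 55.1 in TEM YFP+ cells, and 0 in 4 of 6 naive libraries. In a conventional dendritic cell list, 5 of 6 genes fell and 0 rose (median -4.19), Itgax was the most abundant, and the summed level was 76, 130.5 and 113 in naive YFP- cells, 111, 350.2 and 94.9 in naive YFP+ cells, 12875, 9205 and 19012 in TEM YFP- cells and 1102, 502 and 1129 in TEM YFP+ cells. All 3 lists were highest in the TEM YFP- libraries. The part of such cells in the Iglc3 difference was not tested.

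**Figure D3:**
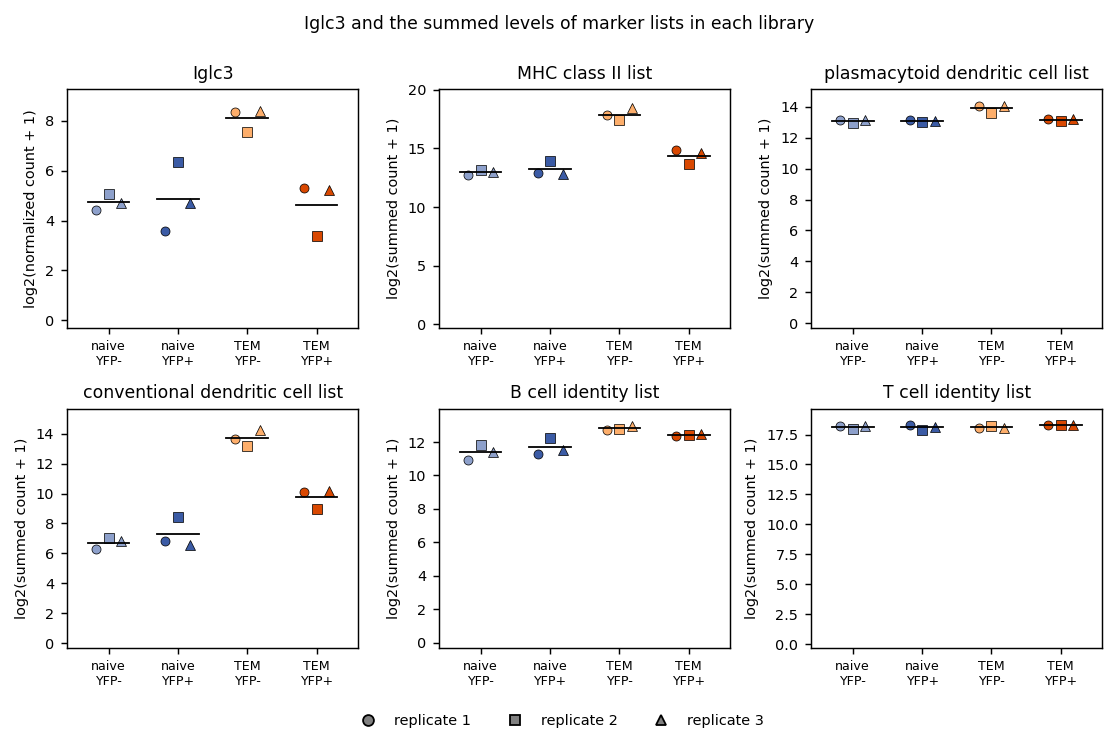
Iglc3 counts and the summed normalized counts of 5 marker lists on a log2 scale (value + 1), with 1 marker per library and a line at the mean of the log2 values. TEM YFP- libraries were the highest for Iglc3, MHC class II and both dendritic cell lists, while the T cell identity list was level across groups.

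A pair of V segments was called higher in TEM YFP+ cells, both chosen for naming after their values were seen. Ighv10-3 had 1.15, 0 and 3.46 normalized counts in naive YFP- cells, 0, 9.84 and 0 in naive YFP+ cells, 0, 0 and 0 in TEM YFP- cells and 31.3, 15.5 and 49.4 in TEM YFP+ cells. It was at 0 in all TEM YFP- libraries and present in all TEM YFP+ libraries, at least 12.4-fold higher than a floor of 3 reads per library (limma adjusted p = 0.00499, range over 22 settings 0.000580 to 0.0296). Igkv17-121 had 2.3, 5.3 and 1.15 in naive YFP- cells, 3.71, 4.92 and 7.44 in naive YFP+ cells, 0, 0 and 0 in TEM YFP- cells and 1.01, 8.28 and 9.51 in TEM YFP+ cells. It too was at 0 in TEM YFP- cells and at least 2.43-fold higher in TEM YFP+ cells (limma adjusted p = 0.0462, range 0.00932 to 0.188). Naive libraries of both YFP groups held 1.15 to 7.44 counts of it. Neither segment would have passed the filter without its TEM YFP+ libraries, and both were also called with no filter (adjusted p = 0.00400 and 0.0376). The Igkv17-121 call was lost on leaving out naive YFP- replicate 1 (0.0631) or 3 (0.0524), naive YFP+ replicate 1 (0.0590) or 3 (0.0605), TEM YFP- replicate 1 (0.130), 2 (0.120) or 3 (0.150), or TEM YFP+ replicate 2 (0.148) or 3 (0.188). That call was also lost with a prior count of 5 and with quantile normalization, and it held in 11 of 22 settings.

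The number of called genes in this comparison moved with the fit. At an unadjusted p under 0.05 there were 11 higher (9.48%) and 4 lower (3.45%), beside 6.70% and 10.4% of all genes tested. With a term for the replicate number, limma called 5 higher (4.31%) and 3 lower (2.59%), beside 1.58% and 3.98% of all genes. Without TEM YFP+ replicate 1 it called 6 higher (5.45%) and 1 lower (0.909%), beside 0.744% and 3.04%. DESeq2 called 5 higher (4.31%) and 1 lower (0.862%), beside 1.66% and 4.16%. With a term for the replicate number DESeq2 called 14 higher (12.1%) and 1 lower (0.862%), beside 1.87% and 4.25%. edgeR called 2 higher (1.72%) and 1 lower (0.862%), beside 1.41% and 3.37%.

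Ighm itself was lower in TEM YFP+ than in TEM YFP- cells in each replicate number, but did not pass (log2 fold change -0.36, SE 0.13, limma adjusted p = 0.124). Its means were 23945 ± 3994 (SD, n = 3) and 30624 ± 3027 (SD, n = 3). With a term for the replicate number the limma adjusted p was 0.0495. Over the alternatives the adjusted p ranged from 0.00958 to 0.407, and the absolute log2 fold change stayed below 1 throughout. Igkc (log2 fold change 0.71, SE 0.93, limma adjusted p = 0.823), Jchain (log2 fold change 0.93, SE 1.27, limma adjusted p = 0.834) and Igha (log2 fold change 1.58, SE 1.96, limma adjusted p = 0.81) were not called. Without replicate 2 in all groups, an alternative chosen after seeing the data, Igkc (1.22, adjusted p = 0.00340) and Jchain (1.58, adjusted p = 0.0475) passed. For Igkc the adjusted p ranged from 0.00340 to 0.954 and for Jchain from 0.0475 to 0.940.

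The log2 ratio of TEM YFP+ to TEM YFP- means was -0.21 for all 160 genes, 0.49 without Ighm and 0.61 for V segments alone. Leaving out TEM YFP- replicate 2, an alternative chosen after seeing the data, raised the last 2 ratios to 1.18 and 1.68, and leaving out any other single TEM library gave 0.22 to 0.54 and 0.25 to 0.64. The summed V level was 655, 3109 and 797 in TEM YFP- cells and 2454, 2278 and 2250 in TEM YFP+ cells. The YFP+ libraries lay close together, between the high YFP- replicate 2 and the other YFP- libraries.

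In naive cells, where the comparison asks whether cells with a history of GM-CSF expression differ before activation, no immunoglobulin gene passed. With limma 0 of 116 were called, beside 0.00642% of all genes tested. At an unadjusted p under 0.05 there were 2 (1.72%), both higher, beside 3.32% of all genes. Those were Ighv6-3 and Ighd1-1, named here after their values were seen. DESeq2 and edgeR called 0, beside 0.0385% and 0.00642% of all genes, and DESeq2 with a term for the replicate number called 1 lower (0.862%), beside 0.0385% lower. The median log2 fold change was 0.71 over the 116 genes and 0.0069 over all genes tested, or 0.67 and 0.0037 with genes absent from a whole group set to the floor. Without naive YFP+ replicate 2 it was -0.53 over the 94 genes then tested and 0.0068 over all genes. The log2 ratio of means without Ighm was 1.83, and -0.79 without naive YFP+ replicate 2, while the high YFP- replicate 2 stayed in. Without replicate 2 on both sides, an alternative chosen after seeing the data, it was 0.12. For V segments the ratio was 1.96, -0.96 without that YFP+ library and 0.23 without replicate 2 on both sides.

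The interaction between cell type and YFP called 0 of 116 immunoglobulin genes with limma, beside 3.1% of all genes tested. At an unadjusted p under 0.05 there were 7 (6.03%), 3 higher and 4 lower, beside 11.7% of all genes. DESeq2 called 0 higher and 2 lower (1.72%), beside 0.815% and 3.45% of all genes, and edgeR 0 higher and 1 lower (0.862%), beside 0.500% and 2.15%. With a term for the replicate number limma called 1 higher (0.862%) and 0 lower, beside 0.853% and 2.95%, and DESeq2 2 higher (1.72%) and 3 lower (2.59%), beside 0.879% and 3.64%. Without naive YFP+ replicate 1 limma called 2, both lower (1.72%, beside 2.54%), and without naive YFP+ replicate 2 it called 1, higher (1.06%, beside 0.641%). Quantile normalization shifted the log2 fold changes of all genes by a median of 0.12 here.

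V segments, which encode the antigen-binding part of each chain, were counted sparsely and unevenly. The 144 segments of the table summed to 219, 1338 and 333 normalized counts in naive YFP- cells and 309, 6707 and 338 in naive YFP+ cells. None was above the floor of 3 reads in all 12 libraries, 111 were above it in at most 6 libraries, and the median was 4 libraries. For 53 segments more than 50% of the counts came from 1 library, and the median share of the top library was 43.1%. The top library was naive YFP+ replicate 2 for 51 segments, and a library numbered 2 for 94.

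Kappa V segments dominated. They made up 94.4, 95 and 97.3% of light chain V reads in naive YFP- cells, 94.9, 97.2 and 91.7% in naive YFP+ cells, 94.5, 95.6 and 95.4% in TEM YFP- cells and 86.8, 99.3 and 97.1% in TEM YFP+ cells. By mean count the leading segments were Igkv3-2 (89.2), Igkv3-4 (79.5) and Igkv5-39 (57.3) for kappa, Ighv1-53 (48.7), Ighv1-72 (36.3) and Ighv6-3 (34.8) for the heavy chain, and Iglv1 (39.3), Iglv3 (4.11) and Iglv2 (3.43) for lambda. None of these 9 was called in any comparison.

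Igkv3-4 had 0, 111 and 5.76 normalized counts in naive YFP- cells, 1.24, 398 and 6.51 in naive YFP+ cells, 0, 227 and 0 in TEM YFP- cells and 0, 194 and 10.5 in TEM YFP+ cells. It was high in all 4 libraries of replicate 2 and at most 10.5 in the other 8. Its neighbor Igkv3-2 had 15, 50.9 and 2.3 in naive YFP- cells, 1.24, 258 and 2.79 in naive YFP+ cells, 13.1, 262 and 2.04 in TEM YFP- cells and 193, 268 and 2.85 in TEM YFP+ cells. That segment, too, was highest in replicate 2 of each group, and unlike Igkv3-4 it was also high in TEM YFP+ replicate 1. Ighv1-53 had 0, 31.8 and 1.15 in naive YFP- cells, 1.24, 225 and 2.79 in naive YFP+ cells, 18.9, 145 and 16.3 in TEM YFP- cells and 2.02, 133 and 7.6 in TEM YFP+ cells. It too was highest in the libraries of replicate 2 in each group. The sequences of the kappa pair are shown because their counts led the list, as 290 bases of each V exon, 5′ to 3′ on the plus strand of chromosome 6 in GRCm38, from GENCODE M21 transcripts, with capitals where the pair differs.
Igkv3-4: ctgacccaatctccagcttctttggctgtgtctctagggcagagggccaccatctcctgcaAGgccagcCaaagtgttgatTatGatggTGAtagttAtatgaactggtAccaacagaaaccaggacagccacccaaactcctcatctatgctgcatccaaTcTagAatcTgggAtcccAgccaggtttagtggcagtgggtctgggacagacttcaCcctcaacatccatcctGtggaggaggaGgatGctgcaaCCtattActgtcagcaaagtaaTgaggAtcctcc
Igkv3-2: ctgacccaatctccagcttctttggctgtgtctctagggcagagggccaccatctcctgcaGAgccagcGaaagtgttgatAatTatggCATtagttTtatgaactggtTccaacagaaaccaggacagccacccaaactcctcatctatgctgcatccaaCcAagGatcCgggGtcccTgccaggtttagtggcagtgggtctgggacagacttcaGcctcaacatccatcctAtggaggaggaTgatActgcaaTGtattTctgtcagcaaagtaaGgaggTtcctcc
They lie at chr6:70672088-70672377 and chr6:70698778-70699067. The pair differed at 25 of 290 bases (91.4% identity) and shared 26 of 311 windows of 50 bases, with a longest common run of 73. Of the 144 segments, 120 shared at least 1 window of 50 bases with another segment of the table, and 16 shared more than 50% of their windows. Counts of single segments are uncertain to that extent.

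Different segments led in different libraries. In naive YFP- replicates 1 to 3 the largest were Igkv3-2 (6.84% of V reads, exact 95% interval 3.69% to 11.4%), Igkv3-4 (8.33%, 6.86% to 9.99%) and Igkv1-110 (6.23%, 3.73% to 9.67%). In naive YFP+ cells they were Igkv4-61 (4.80%, 2.50% to 8.23%), Igkv5-39 (7.16%, 6.56% to 7.80%) and Igkv10-96 (8.54%, 5.88% to 11.9%). In TEM YFP- cells they were Igkv10-96 (10.8%, 8.70% to 13.1%), Igkv3-2 (8.41%, 7.59% to 9.30%) and Igkv1-135 (10.7%, 8.66% to 13.1%). In TEM YFP+ cells they were Igkv3-2 (7.87%, 6.83% to 9.01%), Igkv3-2 (11.8%, 10.5% to 13.2%) and Ighv14-2 (8.20%, 7.12% to 9.37%). No segment led in more than 4 libraries, Igkv3-2 being that segment.

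**Figure D4:**
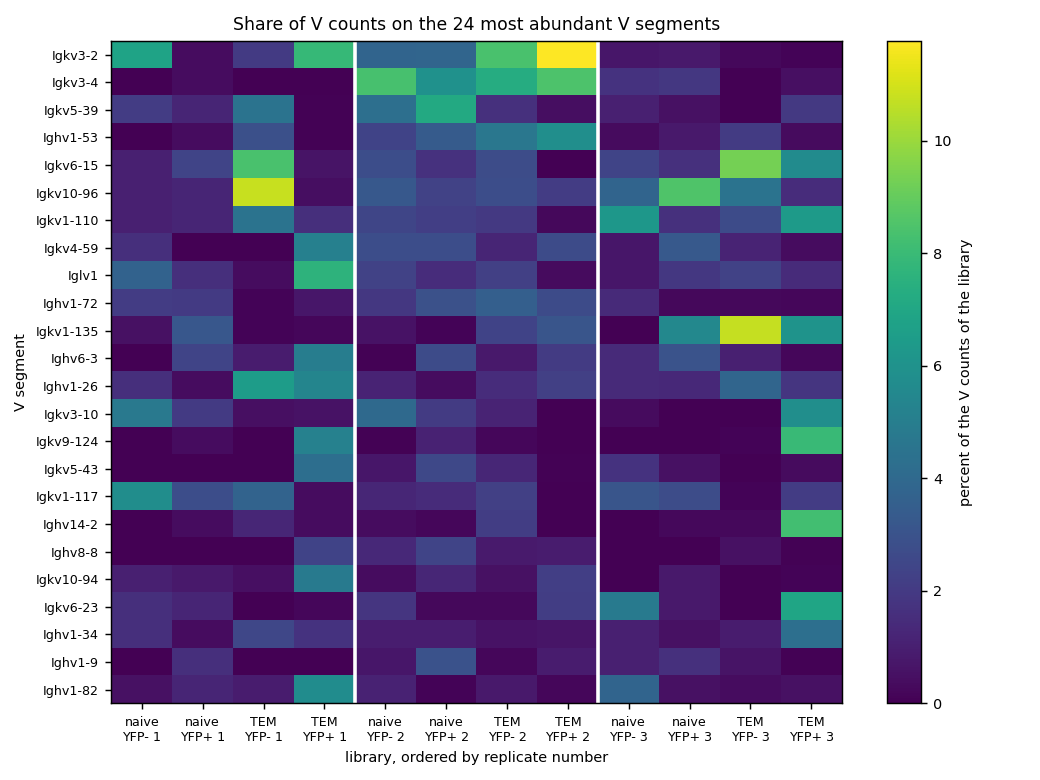
Share of each library's V segment counts (color, percent) for the 24 V segments with the largest mean counts, with libraries ordered by replicate number and white lines between numbers. The 4 libraries of replicate 2 shared high Igkv3-4, and TEM libraries of replicates 1 and 3 had single segments that stood out.

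Heavy chain V segments were led by Ighv1-53 in replicate 2 of naive YFP+, TEM YFP- and TEM YFP+ cells, with 8.54%, 11.4% and 14.9% of Ighv reads. Ighv1-26 led in TEM YFP- replicates 1 (14.5%) and 3 (9.90%). Ighv1-82 led in TEM YFP+ replicate 1 (14.4%) and Ighv14-2 in TEM YFP+ replicate 3 (20.9%). In the other naive libraries the largest counts were those of Ighv1-75, Ighv9-3, Ighv1-82, Ighv1-50 and Ighv5-4, in the order of groups and numbers. In naive YFP- replicate 1, Ighv1-81, Ighv1-84, Ighv10-1 and Ighv2-2 equaled Ighv1-75. In naive YFP+ replicate 1, Ighv1-55 equaled Ighv1-50. Igkv9-124 was the largest kappa segment of TEM YFP+ replicate 3, with 13.5% of Igkv reads. Iglv1 was the largest lambda segment except in naive YFP- replicate 3, where Iglv3 equaled it, in naive YFP+ replicate 3, which Iglv3 led, and in TEM YFP- replicate 1, which Iglv2 led.

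The evenness of V usage was summarized by the effective number of segments (the inverse Simpson index of read shares). It was 37.7, 41.7 and 44.9 in naive YFP- cells, 55.1, 41.7 and 37.3 in naive YFP+ cells, 22.9, 39.2 and 24.8 in TEM YFP- cells and 25.3, 25.6 and 23.4 in TEM YFP+ cells. The YFP+ TEM libraries lay between 23.4 and 25.6, below all naive libraries (37.3 to 55.1), and TEM YFP- replicate 2 was the only TEM library within the naive range. Naive YFP- replicate 1 had only 190 V reads, against 6817 in naive YFP+ replicate 2, and with segments of at least 10 reads alone the median over libraries was 17.4 in place of 37.5. The order of TEM YFP+ below naive libraries did not hold there. Naive replicates 1 and 3 fell to 1.99 and 4.75 (YFP-) and 1.00 and 6.96 (YFP+), below the TEM YFP+ libraries at 20.7, 21.6 and 17.6. In those naive libraries the cut kept only 2 and 5 segments (YFP-) and 1 and 8 (YFP+). In the TEM YFP+ libraries it kept 35, 40 and 32. The effective number cannot exceed the number of segments kept, so this cut cannot decide the order for those naive libraries.

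V usage was compared between libraries as the sum of the smaller of each segment's 2 shares. Over the 6 pairs of libraries numbered 2 this overlap had a median of 55.0% (43.3% to 62.8%). For number 1 it was 30.0% (22.8% to 38.3%) and for number 3 it was 38.0% (29.6% to 42.5%). The 48 pairs with different numbers had a median of 35.5% (22.3% to 50.8%). Pairs numbered 2 thus had the highest median, and all pairs numbered 1 or 3 lay within the range of pairs across numbers. With at least 200 V reads in both libraries the medians were 55.0%, 24.5%, 38.0% and 35.9%.

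Genes of B cells were present at low level in all groups. All 18 genes of a B cell identity list were in the table, summing to 1964, 3551 and 2721 normalized counts in naive YFP- cells, 2546, 4876 and 2974 in naive YFP+ cells, 6881, 6920 and 7918 in TEM YFP- cells and 5233, 5507 and 5623 in TEM YFP+ cells, and Pou2af1, a coactivator of octamer-binding factors, had the largest mean. This sum, too, was highest in the TEM YFP- libraries. In TEM YFP+ against YFP- cells 3 rose (Ebf1, Cd79a and Cd72) and 3 fell (Spib, Fcrla and Blnk). In TEM against naive cells 5 rose and 6 fell, and Spib was the only one called in the interaction (log2 fold change -3.57, limma adjusted p = 0.01).

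Genes of this list moved in both directions between TEM and naive cells. Cd22 (log2 fold change 3.08), Fcrl1 (3.37) and Blnk (1.02) were called higher in TEM, and Ms4a1 (-1.52) lower. Ms4a1 had 70.3, 179 and 115 normalized counts in naive YFP- cells, 75.4, 225 and 115 in naive YFP+ cells, 9.84, 37.1 and 19.4 in TEM YFP- cells and 142, 34.2 and 128 in TEM YFP+ cells. It was higher in replicate 2 than in the other replicates of each naive group, lay below every naive library in TEM YFP- replicates, and was at 0 in no library. Vpreb3, a rarely detected gene of the list, was at 0 in 5 libraries. Cd79a had 207, 442 and 359 in naive YFP- cells, 318, 686 and 251 in naive YFP+ cells, 45.1, 54.1 and 37.7 in TEM YFP- cells and 265, 72.5 and 265 in TEM YFP+ cells. Among naive libraries it was highest in YFP+ replicate 2 and then YFP- replicate 2, as Igkc was. It fell in TEM against naive cells (log2 fold change -1.97, SE 0.35, limma adjusted p = 3.94e-04) and was higher in TEM YFP+ than in YFP- cells (log2 fold change 1.91, SE 0.50, limma adjusted p = 0.0383). The quotient of Igkc over Cd79a counts was 1.05, 2.28 and 0.75 in naive YFP- cells, 0.817, 6.47 and 1.19 in naive YFP+ cells, 14.5, 43.8 and 19.3 in TEM YFP- cells and 6.11, 26.3 and 6 in TEM YFP+ cells.

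Genes of plasma cells and antibody secretion gave 12 of 13 in the table (Tnfrsf17 was absent), summing to 25664, 24416 and 23756 normalized counts in naive YFP- cells, 24687, 24222 and 23709 in naive YFP+ cells, 33290, 31968 and 32864 in TEM YFP- cells and 35806, 31984 and 30740 in TEM YFP+ cells, with Edem1 the most abundant. In TEM against naive cells 4 rose (Sdc1, Derl3, Prdm1 and Irf4) and 1 fell (Fkbp11). Prdm1 and Irf4, factors of plasma cell differentiation, also act in activated T cells. Sdc1, the plasma cell surface proteoglycan CD138, had 0, 8.49 and 1.15 normalized counts in naive YFP- cells, 1.24, 12.8 and 3.72 in naive YFP+ cells, 52.5, 33.3 and 55 in TEM YFP- cells and 181, 50.7 and 95.1 in TEM YFP+ cells. All TEM libraries exceeded all naive libraries (log2 fold change 4.15, SE 0.59, limma adjusted p = 5.82e-05). None of the list was called in TEM YFP+ against YFP- cells or in the interaction. The part of B lineage cells in the TEM values of Ighg3, Igha and Jchain was not tested.

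The machinery that rearranges and switches immunoglobulin genes was mostly low. Of 8 listed genes, 5 were in the table (Rag2, Vpreb2 and Igll1 were absent), summing to 1785, 1551 and 1788 in naive YFP- cells, 1353, 1053 and 1253 in naive YFP+ cells, 1259, 1112 and 1293 in TEM YFP- cells and 769, 725 and 764 in TEM YFP+ cells, with Ung, a DNA repair enzyme, the most abundant. Rag1, a subunit of the recombinase, had at most 5.74 normalized counts and was not tested.

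Dntt, which adds bases at the joints of rearranged receptor genes, differed with YFP. It had 695, 669 and 771 normalized counts in naive YFP- cells, 266, 209 and 286 in naive YFP+ cells, 449, 211 and 408 in TEM YFP- cells and 33.4, 7.25 and 8.55 in TEM YFP+ cells. YFP+ libraries were lower than YFP- libraries of the same number in both cell types. It fell in TEM YFP+ cells (log2 fold change -4.61, SE 0.46, limma adjusted p = 1.54e-04), in TEM against naive cells (-2.62 on the log2 scale) and in the interaction (log2 fold change -3.11, limma adjusted p = 0.0196).

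Receptors that bind immunoglobulins gave 9 of 10 in the table (Fcamr was absent), summing to 807, 795 and 926 normalized counts in naive YFP- cells, 1096, 1648 and 951 in naive YFP+ cells, 3270, 2532 and 4545 in TEM YFP- cells and 1227, 598 and 1102 in TEM YFP+ cells, with Fcgrt the most abundant. In TEM YFP+ against YFP- cells 3 fell, the inhibitory receptor Fcgr2b (log2 fold change -3.34, limma adjusted p = 0.00988), the shared signaling chain Fcer1g (log2 fold change -2.74, limma adjusted p = 0.0251) and the recycling receptor Fcgrt (log2 fold change -1.96, limma adjusted p = 0.00133), and 0 rose. In TEM against naive cells 5 rose and 0 fell.

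Among other blood cell lists, the myeloid sum was also highest in the TEM YFP- libraries, and the erythroid sum was not. A myeloid list of 7 genes summed to 358, 864 and 205 in naive YFP- cells, 606, 4061 and 322 in naive YFP+ cells, 7566, 6284 and 11853 in TEM YFP- cells and 4096, 2049 and 2864 in TEM YFP+ cells, with Csf1r the largest by mean, and 2 (Cd68 and Adgre1) fell in TEM YFP+ cells. An erythroid list gave 3 of 4 genes (Hbb-bt was absent), led by Hba-a1, summing to 160.1, 354 and 48.4 in naive YFP- cells, 881, 3607 and 77.2 in naive YFP+ cells, 1284, 559 and 88.6 in TEM YFP- cells and 3096, 773 and 1180 in TEM YFP+ cells, and none was called. No gene of any of these lists was called in naive YFP+ against YFP- cells. The myeloid and erythroid sums were highest among naive libraries in naive YFP+ replicate 2, the library with the most Igkc, and their part in its immunoglobulin counts was not tested.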

How the data were processed

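The authors sequenced total RNA (stranded kit), mapped reads to mm10 with DRAGEN, counted genes with Rsubread and normalized with DESeq2. Versions, counting annotation and strand setting were not given in the sources used here. The deposited signal is normalized counts. Each library's size factor was recovered, and 100% of values were whole reads within 0.01.

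Members and lists were chosen with earlier results of these data known. limma 3.58.1 (R 4.3.3) was fitted with trend to log2(count + 1) over 4 group means and all 12 libraries. Alternatives were prior counts of 0.1 and 5, other filters and scalings, edgeR 4.0.16, DESeq2 1.42.0, a replicate term and leaving out libraries. Deviations from group means correlated between YFP- and YFP+ libraries of the same number (0.180, 0.338 and 0.356 in TEM, 0.306, 0.491 and 0.360 in naive), so the numbers pair samples. The main fit had no term for the number, and its adjusted p values take the libraries as independent.

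Named genes were all constant genes and Jchain, the 3 most abundant segments per V class, called members with a mean of at least 50, the leading V segment per library, and genes of lists (T cell, B cell, plasma cell, rearrangement, immunoglobulin receptor, MHC class II, dendritic cell, myeloid and erythroid). Sums and usage carry no test.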

Additional observations from a re-analysis of the deposited data

Results flagged for a closer look

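The 10 immunoglobulin J segments of the table lie outside the selection and enter no comparison above. Their summed level was 76, 272 and 88.7 normalized counts in naive YFP- cells, 97.7, 1098 and 81.8 in naive YFP+ cells, 688, 832 and 476 in TEM YFP- cells and 390.3, 656 and 422 in TEM YFP+ cells. The lowest TEM library, at 390.3, lay above the highest naive YFP- library, and naive YFP+ replicate 2, at 1098, lay above all other libraries. These differences were not tested.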

How the results depend on the processing

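Among the single genes recomputed, no called value changed sign. Counts of called immunoglobulin genes follow, with their shares of those tested, higher and lower, beside the shares of all genes. In TEM YFP+ against YFP- cells the main fit called 3 (1.72% and 0.862%, beside 1.3% and 3.5%). A filter on a mean of at least 10 gave 1 (0 and 1.47%, beside 1.27% and 3.49%), the replicate term 8 (4.31% and 2.59%, beside 1.58% and 3.98%), DESeq2 6 (4.31% and 0.862%, beside 1.66% and 4.16%) and DESeq2 with that term 15 (12.1% and 0.862%, beside 1.87% and 4.25%). Leaving out a library gave 2 (1 higher and 1 lower, beside 0.718% to 1.32% and 1.94% to 3.61%) to 7 (5.45% and 0.909%, beside 0.744% and 3.04%). In naive cells (0) DESeq2 with the term gave 1 (0 and 0.862%, beside 0.0577% and 0.0385%), and leaving out a library gave 0 to 0. In the interaction (0, beside 0.648% and 2.45%) a prior count of 5 gave 2 (0.862% and 0.862%, beside 0.847% and 3.30%) and quantile normalization 2 (0.862% and 0.862%, beside 1.12% and 2.55%). The term gave 1 (0.862% and 0, beside 0.853% and 2.95%), edgeR 1 (0 and 0.862%, beside 0.500% and 2.15%), DESeq2 2 (0 and 1.72%, beside 0.815% and 3.45%) and DESeq2 with the term 5 (1.72% and 2.59%, beside 0.879% and 3.64%). Leaving out a library gave 0 to 2 (0 and 1.72%, beside 0.546% and 2.54%), and leaving out replicate 2 in all groups, chosen after seeing the data, 1 (2.17% and 0, beside 0.598% and 1.79%). In TEM against naive cells (14, 12.1% and 0, beside 21.6% and 5.74%) DESeq2 with the term gave 26 (22.4% and 0, beside 21.0% and 5.58%). Leaving out a library gave 7 (6.14% and 0, beside 21.2% and 5.69%) to 29 (30.9% and 0, beside 22.6% and 5.46%), and leaving out replicate 2 in all groups 22 of 46 tested (47.8% and 0, beside 21.2% and 5.03%). The filter was applied again after each omission, so the genes tested in TEM against naive cells differed between these fits. Quantile normalization there gave a similar number, 18, but in the other direction, with 4 higher and 14 lower in place of 14 higher and 0 lower, beside 14.9% and 17.2% of all genes in place of 21.6% and 5.74%.

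The log2 ratio of summed levels moved from -0.21 to 0.49 (without Ighm) and 0.61 (V segments alone) in TEM YFP+ against YFP- cells, with leave-one-out values of -0.32 to -0.068. It moved from 0.22 to 1.83, 1.96 and, without replicate 2 in all groups, -0.082 in naive cells, with -0.062 to 0.34 on leaving out a library. For TEM against naive cells 0.11 became 0.58 without Ighm, with 0.029 to 0.25 on leaving out a library. Leave-one-out values for the sums without Ighm and of V segments were chosen after seeing the data. In TEM YFP+ against YFP- cells they were 0.22 to 1.18 and 0.25 to 1.68, and 1.22 and 1.70 without replicate 2 in all groups. In naive cells they were -0.79 to 2.74 and -0.96 to 3.15, and 0.12 and 0.23 without replicate 2 in all groups. In TEM against naive cells they were 0.36 to 2.04 and 0.092 to 1.92, and 2.40 and 2.36 without replicate 2 in all groups. The median effective number of V segments was 37.5, and 17.4 with segments of at least 10 reads alone, where TEM YFP+ libraries no longer lay below all naive libraries. That cut left few segments in naive libraries with few V reads, so it cannot decide the order for them. Of other checks, 159 stayed within their limits. For single genes 379 checks kept the call, 13 gained and 33 lost it. DESeq2 gave no adjusted p for Igkc. The causes of these shifts were not tested.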
